A study of Homo sapiens with 16 samples.

Results

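The H3K9me2 peak lists of 2 breast cell lines, MCF-10A and MDA-MB-231, were compared by the domains that their peaks form. The comparison used 4 of the 16 samples in the series, 2 replicates of each line that the labels call biological. Peaks on the 22 autosomes that lay less than 10 kb apart within a list were joined into a domain, and domains were compared in number, length, clustering and position. A peak with no neighbour within 10 kb is a domain of a single peak, and a domain of 2 or more peaks is called a multi-peak domain here.

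MCF-10A is a non-tumorigenic line of human breast epithelium, which the labels describe as luminal ductal cells and which was grown with EGF, insulin, cholera toxin and hydrocortisone. MDA-MB-231 is a human breast cancer line that the labels describe as derived from a metastatic site. Both were laboratory stocks, untreated and harvested before confluence, and the mark was immunoprecipitated from both with the same mouse monoclonal antibody. The series also holds H3K27me3 and H3K4me3 lists of both lines, used here only beside H3K9me2, and 4 inputs that were not analysed here. Its title concerns DNA attached to the nuclear matrix. A line is a single cell population, so the replicates measure the spread between cultures or preparations of that stock and say nothing of other breast cells. The labelled cell types could not be checked here, because the lists hold neither gene names nor expression.

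H3K9me2 is dimethylation of lysine 9 on histone H3. It is written mainly by the methyltransferases G9a and GLP, is bound by HP1 proteins, and marks silent chromatin. It often forms broad blocks rather than sharp peaks, and such blocks are frequent at the nuclear periphery, next to the lamina. H3K27me3, the Polycomb mark, is another mark of silent chromatin, and H3K4me3 marks active and poised promoters.

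MCF-10A had more H3K9me2 peaks than MDA-MB-231. The autosomal peaks numbered 10418 and 8701 in the MCF-10A lists and 6086 and 4980 in the MDA-MB-231 lists, and covered 18.6 and 15.3 Mb against 15.1 and 10.4 Mb. The groups did not overlap in either measure, but the covered bases of MDA-MB-231 replicate 1 came close to those of MCF-10A replicate 2. The lists hold no read counts, so sequencing depth is unknown, and fewer reads and weaker enrichment cannot be told apart as sources of a shorter list. With 2 lists per line the two-sided exact permutation test over lists cannot give a p below 0.333, and where the lines did not overlap it gave that value.

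MDA-MB-231 had fewer domains, and a larger share of them held several peaks. Stitching gave 9062 and 7647 domains in MCF-10A and 4339 and 3790 in MDA-MB-231, a mean of 8354.5 ± 1001 (SD, n = 2) against 4064.5 ± 388 (SD, n = 2), which is a log2 ratio of -1.04 (exact permutation p = 0.333). Both MDA-MB-231 lists lay far below both MCF-10A lists. The difference lay in isolated peaks. Single-peak domains numbered 8045 and 6838 in MCF-10A and 3387 and 3099 in MDA-MB-231, whereas multi-peak domains numbered 1017 and 809 against 952 and 691 and overlapped between the lines (exact permutation p = 0.667). At the upper end the order turned. Domains of 3 or more peaks numbered 211 and 150 in MCF-10A against 354 and 263 in MDA-MB-231, and domains of 5 or more numbered 33 and 24 against 98 and 54. The number of all domains was therefore lower, and the number of domains with at least 3 peaks higher, in both MDA-MB-231 lists.

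Peaks of MDA-MB-231 were clustered more often. The share of peaks that lay in multi-peak domains was 22.8% and 21.4% in MCF-10A and 44.3% and 37.8% in MDA-MB-231, or 22.1% ± 0.966 against 41.1% ± 4.65 (SD, n = 2 each), a difference of 19.0 percentage points (exact permutation p = 0.333). The mean number of peaks per domain was 1.15 and 1.14 against 1.403 and 1.314. These differences were several times the spread between replicates. They were also present at equal list length. When each list was limited to its 4980 highest-scoring peaks, 14.9% and 15.8% of peaks lay in multi-peak domains in MCF-10A and 41.8% and 37.8% in MDA-MB-231. The log2 ratio of domain numbers shrank to -0.29. The lowest scores kept were 70.85 and 64.19 in MCF-10A and 53.96 and 50.01 in MDA-MB-231, where replicate 2 kept all its peaks. The lists were thus matched in length but not in score, and the MCF-10A lists were thinned more. The size of the difference there cannot be set against that of the whole lists. In the 132 bins of 5 Mb that held at least 10 peaks in every list, a set chosen after the lists had been compared, MDA-MB-231 had 32.9 and 27.2 peaks per bin and MCF-10A 27.8 and 23.1. The share of peaks in multi-peak domains there was 51.5% and 45.4% in MDA-MB-231 and 31.2% and 28.4% in MCF-10A. The peak densities of the lines overlapped, but the densest list was of MDA-MB-231 and the sparsest of MCF-10A. The bins were thus not matched for density between the lines.

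Gaps between neighbouring peaks showed the same pattern without a stitching threshold. The median gap was 97.5 and 114 kb in MCF-10A and 35.8 and 51.5 kb in MDA-MB-231, although the mean gap was shorter in MCF-10A, at 266 and 319 kb against 455 and 551 kb. MDA-MB-231 peaks thus sat closer to their nearest neighbours along the chromosome and were also parted by longer empty runs. Gaps below 10 kb made up 13.04% and 12.14% of all gaps in MCF-10A and 28.8% and 24.0% in MDA-MB-231. Gaps over 1 Mb made up 5.20% and 7.11% against 9.38% and 11.9%. The threshold of 10 kb did not fall at an edge in either line: 180, 118, 215 and 142 gaps lay between 8 and 10 kb, and 168, 129, 181 and 111 between 10 and 12 kb, in the order MCF-10A replicates 1 and 2 and MDA-MB-231 replicates 1 and 2.

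**Figure D1:**
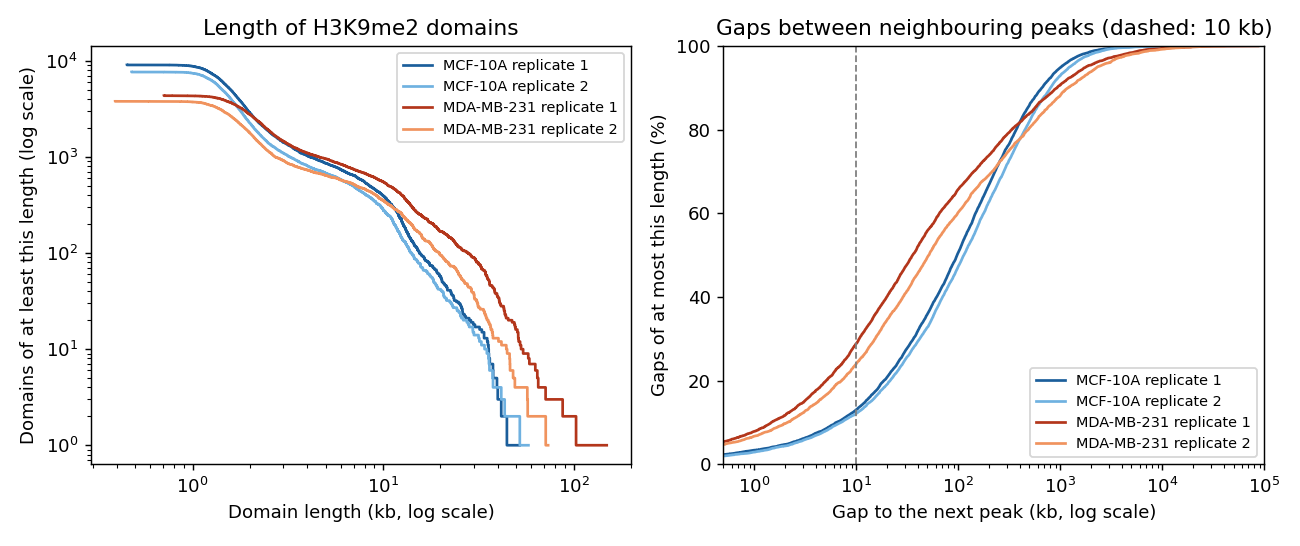
Left, the number of H3K9me2 domains at or above each length in each of the 4 lists (both axes log scale); right, the share of gaps between neighbouring peaks at or below each length (horizontal axis log scale, dashed line at 10 kb). The MDA-MB-231 curves start lower on the left and cross above the MCF-10A curves at long domains, and on the right they lie above the MCF-10A curves at short gaps and below them at the longest gaps.

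Domains were longer in MDA-MB-231. The median length of multi-peak domains was 8363 and 8039 bp in MCF-10A and 11214.5 and 10125 bp in MDA-MB-231 (log2 ratio 0.38, exact permutation p = 0.333). The upper tail differed more, with a 90th percentile of 15.5 and 15.2 kb against 28.8 and 24.1 kb. Domains of 20 kb or more numbered 57 and 42 in MCF-10A and 168 and 95 in MDA-MB-231, and domains of 50 kb or more 1 and 2 against 16 and 4. Those of 20 kb or more held 3.64% and 3.28% of the covered bases in MCF-10A and 18.7% and 13.1% in MDA-MB-231, a difference of 12.4 percentage points (exact permutation p = 0.333). That value depended on the stitching distance, at 4.0 points with 5 kb and 21.9 points with 20 kb, and fell to 4.71 points with peaks scoring at least 100. MDA-MB-231 was the higher line in each.

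Multi-peak domains were filled more densely in MDA-MB-231. Peaks covered 47.2% and 47.6% of the length of multi-peak domains in MCF-10A and 54.4% and 51.5% in MDA-MB-231. Domains of 20 kb or more were filled less than multi-peak domains as a whole in every list, to 42.8% and 41.3% against 49.5% and 47.3%. The median gap inside a domain was 3358.5 and 3304.5 bp in MCF-10A and 2816 and 2880 bp in MDA-MB-231. Peaks were wider inside than outside domains in every list. In MCF-10A the median width was 1580 and 1554 bp for lone peaks, 1719 and 1688 bp in multi-peak domains and 1985.5 and 2010.0 bp in domains of 20 kb or more. In MDA-MB-231 the same order was 2058 and 1758 bp, 2403 and 2081 bp, and 2659 and 2383 bp.

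The longest single domain of each list shows the scale. In MDA-MB-231 replicate 1 it lay on chromosome 6 from 40357461 to 40506831 (hg19, counted from 1), spanned 149 kb with 21 peaks and was 70.5% covered. The same interval was 40.6% covered by 14 peaks in MDA-MB-231 replicate 2, held no peak in MCF-10A replicate 1 and 1 peak in MCF-10A replicate 2. In MDA-MB-231 replicate 2 it lay on chromosome 20 from 57319632 to 57393185 and spanned 73.6 kb. The longest domain of MCF-10A replicate 1, on chromosome 8 from 86726456 to 86778590, spanned 52.1 kb and was covered in all lists, at 45.1%, 33.5%, 54.8% and 45.0%. That of MCF-10A replicate 2, on chromosome 8 from 140512753 to 140570734, spanned 58.0 kb with 11 peaks and was 40.3% and 49.5% covered in MCF-10A against 0% and 3.29% in MDA-MB-231.

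Domains of MDA-MB-231 were themselves arranged in long rows. When peaks less than 50 kb apart were joined into chains, the longest chain spanned 346 and 318 kb in MCF-10A and 931 and 910 kb in MDA-MB-231. Chains of 200 kb or more numbered 20 and 16 against 46 and 24. Both MDA-MB-231 replicates placed their longest chain at the same site on chromosome 20. In replicate 1 it ran from 46378027 to 47308683, with 78 peaks in 27 domains and 24.6% of its length covered. Replicate 2 had 57 peaks there and covered 14.4%, whereas MCF-10A had 5 and 2 peaks and covered 0.861% and 0.322%. The next longest of replicate 1 lay on chromosome 6 from 40096038 to 40788513 and held the 149 kb domain; it was covered to 48.0% and 26.4% in MDA-MB-231 and 1.26% and 0.822% in MCF-10A. The longest MCF-10A chain, on chromosome 7 from 155639132 to 155984953, was covered in both lines, at 11.4% and 8.27% in MCF-10A and 16.7% and 13.7% in MDA-MB-231. Another MCF-10A chain, on chromosome 16 from 50867633 to 51203161, was covered to 14.4% and 10.7% in MCF-10A and held no MDA-MB-231 peak.

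**Figure D2:**
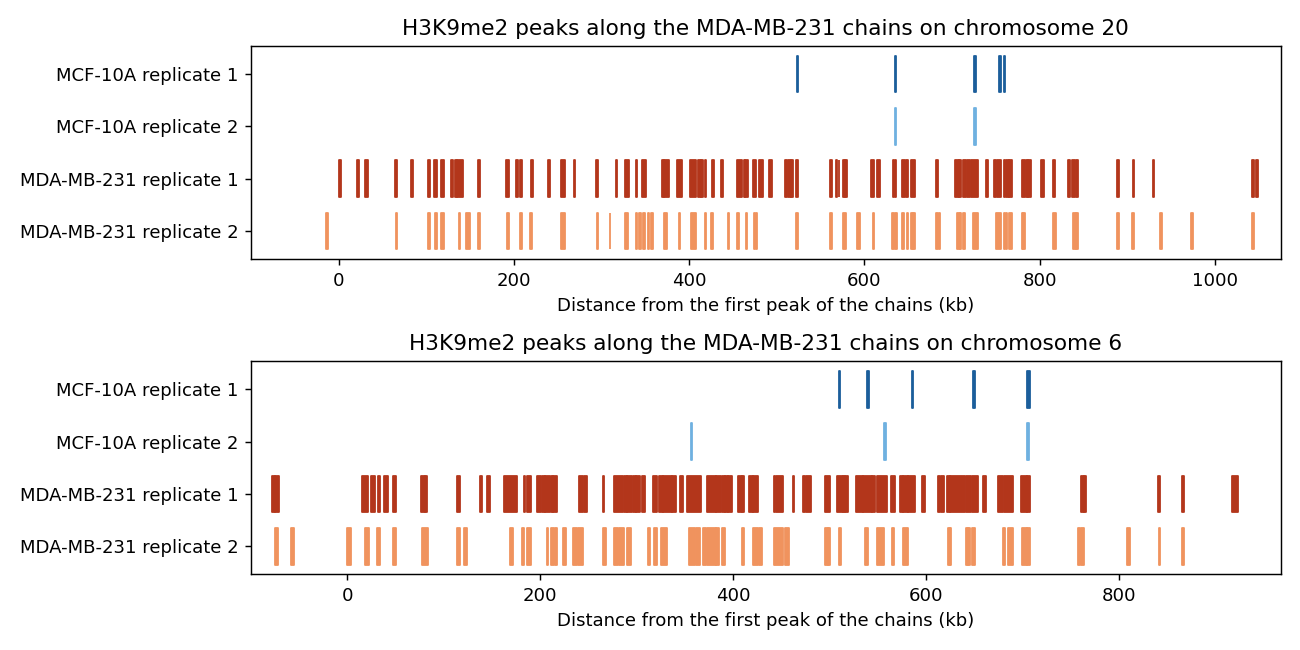
Each vertical mark is an H3K9me2 peak along the longest MDA-MB-231 chains on chromosome 20 (top) and chromosome 6 (bottom), with a row per list and distance in kb from the first peak of the chains of the 2 MDA-MB-231 replicates. In the chains of MDA-MB-231 replicate 1, the MDA-MB-231 rows hold many separate peaks. They cover 24.6% and 14.4% of the chromosome 20 chain and 48.0% and 26.4% of the chromosome 6 chain. The MCF-10A rows hold 5 and 2 peaks in the chromosome 20 chain and 5 and 3 in the chromosome 6 chain of MDA-MB-231 replicate 1.

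H3K9me2 of MDA-MB-231 was concentrated in a smaller part of the genome. Autosomes were divided into 588 bins of 5 Mb, and the 29 most covered bins of each list held 19.1% and 19.9% of covered bases in MCF-10A and 37.2% and 36.8% in MDA-MB-231, a difference of 17.5 percentage points (exact permutation p = 0.333). Bins without any peak numbered 32 and 34 in MCF-10A and 151 and 151 in MDA-MB-231. Of these bins, 29 were empty in all lists. Of the bins that were empty in both MDA-MB-231 lists, 82 were covered in both MCF-10A lists, and the reverse held for 1 bin. A shorter list leaves more bins empty, and empty bins were not counted at equal list lengths. The difference in the most covered bins was 15.4 percentage points at equal list lengths. The 82 bins included 14 of 40 on chromosome 3, 12 of 24 on chromosome 13, 8 of 35 on chromosome 6 and 8 of 16 on chromosome 18.

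The longest empty stretches lay in different places in the lines. In both MCF-10A lists the longest spanned 21.5 Mb around the centromere of chromosome 1. In MDA-MB-231 replicate 1 it spanned 87.0 Mb of chromosome 13, from 23995933 to 111037690, where the MCF-10A lists held 178 and 163 peaks and MDA-MB-231 replicate 2 held 5. In MDA-MB-231 replicate 2 it spanned 40.4 Mb of chromosome 3, from 137627105 to 178051746, with 113 and 79 peaks in MCF-10A and 1 in MDA-MB-231 replicate 1. A stretch of chromosome 8 from 21562138 to 50015166 held 201 and 174 MCF-10A peaks, 1 peak of MDA-MB-231 replicate 1 and none of replicate 2.

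Whole autosomes differed between the lines in their share of a list's covered bases. By limma over the 22 autosomes with Benjamini-Hochberg adjustment at 0.05, 7 had a higher share in MDA-MB-231 (31.8% of those tested) and 12 in MCF-10A (54.5%), and only chromosomes 1, 12 and 19 did not pass. Such shares sum to a fixed total, so a gain of some autosomes lowers the rest; the median log2 ratio over autosomes was -0.39. Chromosome 20 led in MDA-MB-231. It held 1.88% and 1.73% of covered bases in MCF-10A and 13.03% and 12.13% in MDA-MB-231 (log2 ratio 2.80, SE 0.0761, adjusted p = 0.000203 by limma). With 207 and 158 peaks in MCF-10A against 718 and 561 in MDA-MB-231, it was also higher in peak number.

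Chromosomes 17 and 11 followed. Chromosome 17 held 2.15% and 2.13% in MCF-10A and 5.73% and 5.83% in MDA-MB-231 (log2 ratio 1.44). Chromosome 11 held 4.29% and 4.01% against 11.1% and 10.1% (log2 ratio 1.35). Chromosome 6 held 4.13% and 4.10% against 8.33% and 7.53%, and chromosomes 10, 14 and 9 had log2 ratios of 1.01, 0.96 and 0.51. The lists of the lines did not overlap on any of these 7.

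Chromosomes 16, 13 and 8 were low in MDA-MB-231. Chromosome 16 held 6.47% and 6.74% of covered bases in MCF-10A and 0.323% and 0.529% in MDA-MB-231 (log2 ratio -4.0, SE 0.271, adjusted p = 0.000759 by limma). Its peaks numbered 627 and 552 in MCF-10A against 21 and 26 in MDA-MB-231. Chromosome 13 held 1.88% and 2.11% against 0.141% and 0.264% (log2 ratio -3.37). Chromosome 8, with 12.16% and 12.96% the largest share of any autosome in MCF-10A, held 3.29% and 3.64% in MDA-MB-231 (log2 ratio -1.86, SE 0.0820, adjusted p = 0.000384 by limma). Chromosomes 18, 22, 15 and 2 had log2 ratios of -2.01, -1.96, -1.32 and -1.17, and chromosomes 21, 4, 7, 5 and 3 lay between -0.56 and -0.35. Chromosome 3 lost its call when MCF-10A replicate 1 or replicate 2 was left out, and chromosomes 5 and 7 lost theirs without MCF-10A replicate 2. With peaks scoring at least 100, chromosome 15 moved to -0.30, chromosome 10 to 0.64 and chromosome 9 to 0.30, and these, like chromosomes 3, 4 and 5, did not pass (adjusted p from 0.0677 to 0.399 by limma). Chromosomes 2, 7 and 21 passed there at -0.71, -0.66 and -1.04.

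Shares of the other marks moved with those of H3K9me2. Across the 22 autosomes the log2 ratio of the line means ranged from -3.95 to 2.80 for H3K9me2, from -2.38 to 1.47 for H3K27me3 and from -0.25 to 0.15 for H3K4me3. The H3K27me3 ratio had the sign of the H3K9me2 ratio on 20 of 22 autosomes and on 19 of the 19 that passed the test, with a Pearson r of 0.942. H3K4me3 had the same sign on 16 of 22 and on 15 of those 19, with an r of 0.866. These are descriptions over 22 points whose lists come from the same lines. DNA copy number was not measured and the inputs were not analysed here, so its part in the H3K9me2 shares was not tested.

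**Figure D3:**
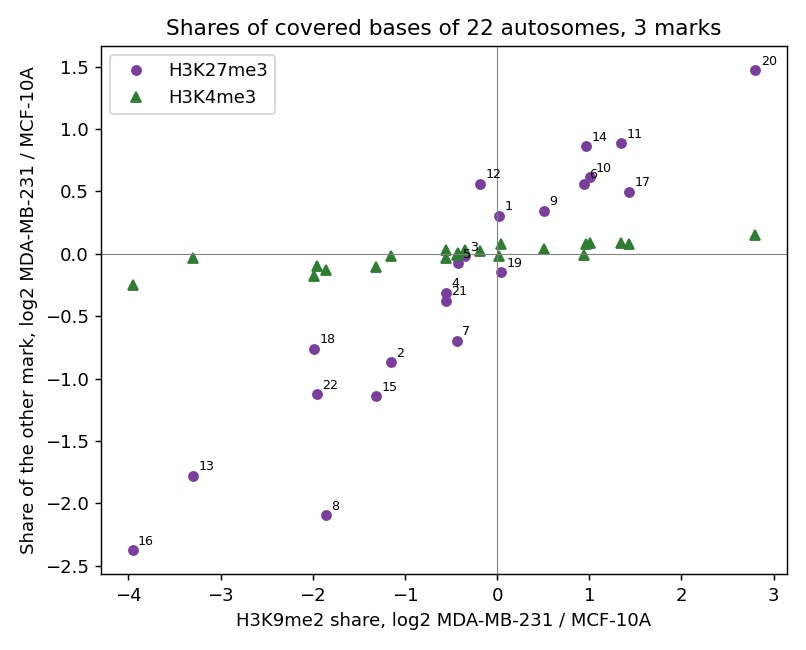
Each point is an autosome, labelled by its number, with the log2 ratio of MDA-MB-231 to MCF-10A shares of covered bases for H3K9me2 on the horizontal axis and for H3K27me3 (circles) or H3K4me3 (triangles) on the vertical axis. The H3K27me3 points run from chromosome 16 at -2.38 to chromosome 20 at 1.47, and the H3K4me3 points stay between -0.25 and 0.15.

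Clustering was higher in MDA-MB-231 on most autosomes, both where its peaks were more numerous and where they were fewer. The share of peaks in multi-peak domains was higher in both MDA-MB-231 lists than in both MCF-10A lists on 19 of 22 autosomes (86.4%), and lower on 1 (4.55%), chromosome 16. Peak numbers were lower in both MDA-MB-231 lists on 16 autosomes (72.7%) and higher on 3 (13.6%), chromosomes 11, 17 and 20. Clustering was higher on all 3 of the latter and on 13 of the 16, the exceptions being chromosomes 13, 16 and 22. On chromosome 13 the shares were 8.93% and 10.3% in MCF-10A and 16.7% and 0% in MDA-MB-231, from 12 and 17 MDA-MB-231 peaks. On chromosome 22 they were 25.0% and 23.5% against 42.1% and 17.6%, from 19 and 17. The MDA-MB-231 shares on chromosomes 15, 18 and 21 also rested on few peaks. These numbered 38 and 37, 41 and 19, and 35 and 34. On chromosome 20, 23.2% and 18.4% of MCF-10A peaks and 66.6% and 56.1% of MDA-MB-231 peaks lay in multi-peak domains. On chromosome 8, where MCF-10A had 1188 and 1072 peaks and MDA-MB-231 203 and 172, the shares were 32.3% and 29.9% against 39.9% and 40.7%. On chromosome 16 they were 36.7% and 34.6% against 23.8% and 15.4%, the latter from 21 and 26 peaks. The median gap was shorter in both MDA-MB-231 lists on 15 autosomes (68.2%). Without chromosomes 6, 8, 11, 16 and 20, left out after their values were seen, the difference in clustered peaks was 17.4 percentage points, close to the 19.0 points of all autosomes.

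**Figure D4:**
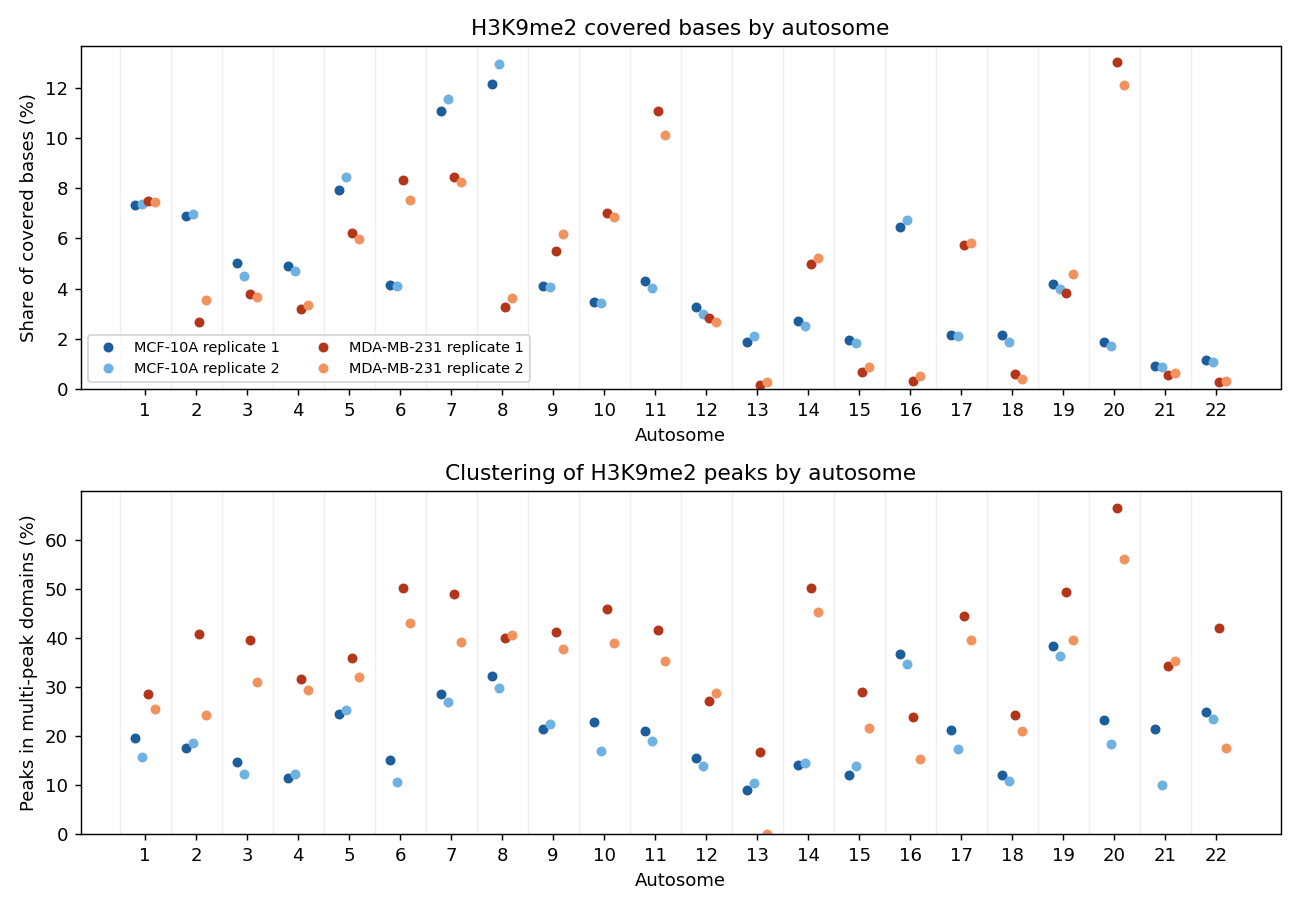
Top, the share of H3K9me2 covered bases on each autosome in each of the 4 lists, in percent; bottom, the share of the autosome's peaks that lie in multi-peak domains. MCF-10A stands high on chromosomes 8 and 16 and MDA-MB-231 on chromosomes 11 and 20 in the top panel, whereas in the bottom panel the MDA-MB-231 points lie above the MCF-10A points on 19 of 22 autosomes.

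Within chromosomes, most 5 Mb bins that differed were higher in MCF-10A. Covered bases per bin were scaled to the list's total, and log2 of bp per Mb of coverage plus 50 was tested with limma on the 559 bins covered in at least 2 lists. At an adjusted p under 0.05, 111 bins were higher in MDA-MB-231 (19.9%) and 275 in MCF-10A (49.2%), of which 82 were at 0 in both MDA-MB-231 lists. The median log2 ratio over bins was -1.23. The split depends on this scaling: of the calls, 28.8% were higher in MDA-MB-231, and 11.8% with unscaled coverage (41 against 307 bins). With either MCF-10A list left out, 477 bins could be tested, since the 82 bins at 0 in MDA-MB-231 then failed the rule of at least 2 lists. The median log2 ratio over the tested bins was -0.70 without MCF-10A replicate 1 and -0.82 without MCF-10A replicate 2.

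Calls of either direction gathered on particular chromosomes. Totals here count all bins of a chromosome, tested or not. Over all tested bins, 19.9% were called higher in MDA-MB-231 and 49.2% in MCF-10A. On chromosome 11, 17 of 27 bins were higher in MDA-MB-231 and 0 in MCF-10A. Chromosome 17 had 11 of 17 against 0, chromosome 20 had 11 of 13 against 1, and chromosome 10 had 11 of 28 against 1. On chromosome 8, 27 of 30 bins were higher in MCF-10A and 0 in MDA-MB-231, on chromosome 16 the counts were 14 of 19 and 0, and on chromosome 13 they were 18 of 24 and 1. These counts include bins at 0 in both MDA-MB-231 lists, which entered the test through MCF-10A and whose ratio is set by the added 50 bp per Mb: 6 on chromosome 8, 6 on chromosome 16 and 12 on chromosome 13. When coverage was instead scaled within each chromosome, 86 bins were higher in MDA-MB-231 and 219 in MCF-10A, and the ratios of named bins on chromosomes 20 and 8 were closer to 0.

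**Figure D5:**
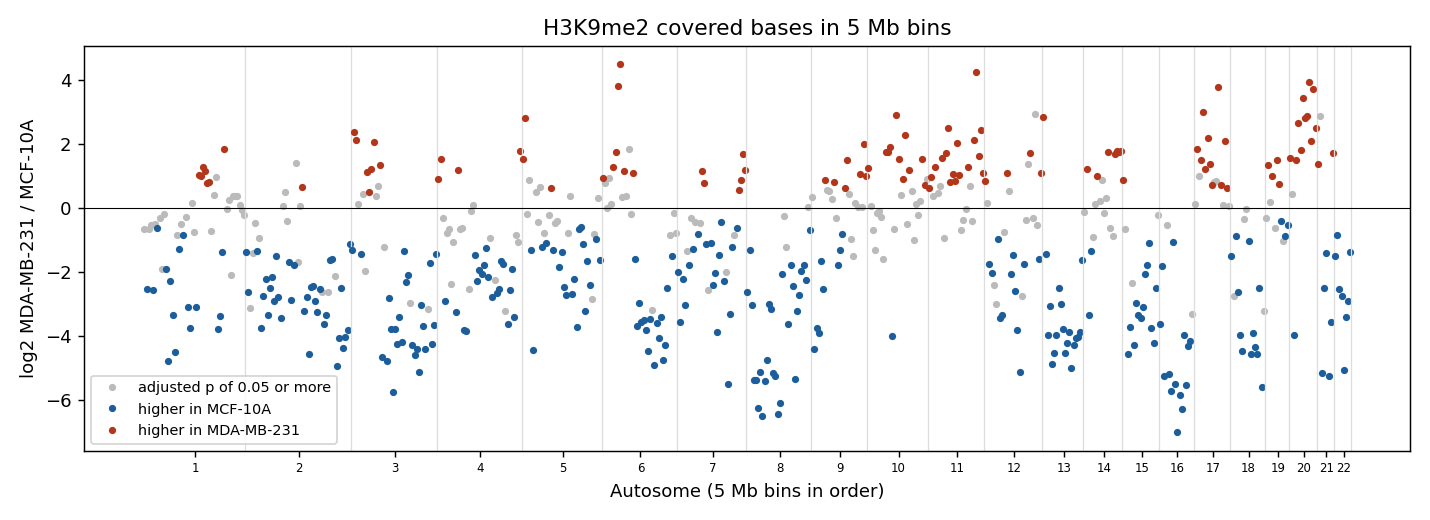
Each point is a 5 Mb bin in chromosome order, with the log2 ratio of scaled H3K9me2 coverage in MDA-MB-231 over MCF-10A on the vertical axis and colour by the limma call. Points higher in MDA-MB-231 gather on chromosomes 10, 11, 17 and 20, and the points on chromosomes 8, 13 and 16 lie mostly far below 0.

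The bins with the smallest p among those covered in all 4 lists lay on chromosomes 20, 6 and 11 for MDA-MB-231. On chromosome 20 from 55000001 to 60000000, peaks covered 51.5 and 40.1 kb in MCF-10A and 555 and 361 kb in MDA-MB-231 (log2 ratio 3.70, SE 0.0966, adjusted p = 0.000611 by limma). On chromosome 6 from 40000001 to 45000000 they covered 26.8 and 21.0 kb against 533 and 309 kb (log2 ratio 4.47, the same adjusted p). The chromosome 6 bin holds the 149 kb domain. Chromosome 20 from 45000001 to 50000000 followed with 22.8 and 20.4 kb against 336 and 192 kb (log2 ratio 3.93), and chromosome 11 from 115000001 to 120000000 with 18.1 and 17.5 kb against 356 and 189 kb (log2 ratio 4.23). The last bin of chromosome 20, from 60000001, had a log2 ratio of 2.50. Scaled within their chromosome, the 3 bins of chromosome 20 had log2 ratios of 0.92, 1.18 and -0.28 in the order of their starts at 55000001, 45000001 and 60000001, and the last did not pass (adjusted p = 0.142 by limma). The bins of chromosomes 6 and 11 had 3.55 and 2.91 on that scale.

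H3K27me3 was higher in the same bins. On chromosome 6 from 40000001 it stood at 3135 and 3169.95 bp per Mb in MCF-10A and 17177 and 16904 in MDA-MB-231, and on chromosome 20 from 45000001 at 5510.3 and 5938 against 29524 and 27443. H3K4me3 differed less, with 4303 and 4281 against 4927 and 4956 bp per Mb on chromosome 6.

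For MCF-10A the leading bins lay on chromosomes 8 and 7. On chromosome 8 from 10000001 to 15000000 peaks covered 133 and 115 kb in MCF-10A and 12.97 and 8.51 kb in MDA-MB-231 (log2 ratio -3.05, adjusted p = 0.000611 by limma), and the log2 ratio was -1.25 when scaled within the chromosome. On chromosome 7 the bins starting at 15000001, 120000001, 90000001 and 85000001 had log2 ratios of -3.04, -3.33, -3.88 and -2.03. H3K27me3 was higher in both MCF-10A lists in all 5 bins. On chromosome 8 it stood at 12683 and 12353 bp per Mb in MCF-10A, above the 7120 and 7509 of H3K9me2, and at 2237 and 2775 in MDA-MB-231. In the 4 bins of chromosome 7 it lay between 435 and 1601 bp per Mb in MCF-10A, where H3K9me2 lay at 2436 to 4408, and between 0 and 261 in MDA-MB-231. Among bins absent from MDA-MB-231, chromosome 16 from 50000001 to 55000000 had 123 and 96.7 kb covered in MCF-10A and chromosome 8 from 35000001 to 40000000 had 85.6 and 69.1 kb, while both MDA-MB-231 lists were at 0 in both bins.

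A larger share of MDA-MB-231 coverage lay near the ends of autosomes. Within 5 Mb of the outermost peaks of any mark, a zone of 7.88% of the autosomal length, lay 15.3% and 15.4% of covered bases in MCF-10A and 19.9% and 22.7% in MDA-MB-231 (exact permutation p = 0.333). All 4 lists were thus above the zone's share of the length. The difference of 5.95 percentage points was 1.20 points within 2 Mb of the ends, and with peaks scoring at least 100 it was -0.20 points. H3K27me3 had 19.2% and 18.8% against 20.3% and 18.6% in the same zone, and H3K4me3 14.6% and 14.6% against 14.2% and 14.5%.

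Domains recurred between replicates and much less between lines. Of multi-peak domains, 44.9% and 56.4% in MCF-10A and 46.7% and 67.3% in MDA-MB-231 overlapped a multi-peak domain of the other replicate, against 14.46% to 23.01% across lines. Any peak of the other replicate lay on 83.0% to 91.0% of them, and any peak of a list of the other line on 34.8% to 50.5%. Large domains met a peak of another list most often: a peak of the other replicate lay on 97.0% to 100% of domains of 20 kb or more, and on 52.4% to 65.3% across lines. A longer domain meets a peak more often by its length alone. A multi-peak domain of the other replicate lay on 85.1% to 93.7% of these large domains, and a multi-peak domain of the other line on 20.8% to 49.1%. Edges matched more closely between MCF-10A replicates. Where a domain of replicate 1 matched a single domain of replicate 2, edges differed by a median of 165.5 bp in MCF-10A (449 pairs). In MDA-MB-231 the median was 783 bp (401 pairs). The matched domains were also longer in MDA-MB-231, with medians of 13237 and 11234 bp against 9667 and 8998 bp in MCF-10A. The part of domain length in the edge difference was not tested.

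Merging the multi-peak domains of all lists gave 2253 regions, of which 1357 (60.2%) held a multi-peak domain in 1 list only. Both MCF-10A lists had a multi-peak domain in 453 regions. In 214 of these (47.2%) MDA-MB-231 had no peak, in 110 (24.3%) it had single peaks and in 129 (28.5%) a multi-peak domain. Both MDA-MB-231 lists had a multi-peak domain in 436 regions. In 160 of these (36.7%) MCF-10A had no peak, in 139 (31.9%) single peaks and in 137 (31.4%) a multi-peak domain. A domain of either line thus fell about as often on isolated peaks of the other as on a domain of the other. All 4 lists had a multi-peak domain in 71 regions. These counts moved with the rule: with domains of at least 3 peaks the regions of MCF-10A alone, MDA-MB-231 alone and all lists numbered 36, 53 and 14. At equal list lengths they numbered 59, 187 and 40, and with stitching at 5 kb 140, 141 and 42, so the order of the lines was not kept.

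The regions found in a single line were unevenly placed. Of the 214 MCF-10A regions, 46 (21.5%) lay on chromosome 8, 41 (19.2%) on chromosome 16 and 30 (14.0%) on chromosome 7. None lay on chromosome 20. In the MCF-10A lists, chromosome 8 held 12.16% and 12.96% of covered bases and chromosome 16 held 6.47% and 6.74%. Chromosome 7 held 11.1% and 11.6%. Of the 160 MDA-MB-231 regions, 34 (21.25%) lay on chromosome 20, 21 (13.1%) on chromosome 11 and 16 (10%) on chromosome 17. None lay on chromosome 8. In the MDA-MB-231 lists, chromosome 20 held 13.03% and 12.13% of covered bases and chromosome 11 held 11.1% and 10.1%. Chromosome 17 held 5.73% and 5.83%. The rule asks for no peak of the other line, so it favours chromosomes where the other line has few peaks. The placement thus restates in part the number of peaks by chromosome. The median region length was 9943.5 bp for MCF-10A, 15605.5 bp for MDA-MB-231 and 21493 bp for the 71 common regions. Common regions merge domains of all lists, whereas regions of a single line merge only those of that line and hold no peak of the other. The rule thus favours longer common regions, so their length cannot be set against that of the single-line regions.

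H3K27me3 lay on more of the MDA-MB-231 regions than of the MCF-10A regions. H3K27me3 peaks of both MCF-10A replicates overlapped 46 of the 214 MCF-10A regions (21.5%), and those of both MDA-MB-231 replicates overlapped 93 of the 160 MDA-MB-231 regions (58.1%). In MCF-10A, which had no H3K9me2 peak on those 160 regions, H3K27me3 of both replicates overlapped 66 of them (41.3%). Counted per MCF-10A H3K27me3 list, the share was 50.0% and 44.4%. All multi-peak domains of the MDA-MB-231 lists stood at 41.8% to 48.5% with the same H3K27me3 lists, so the 160 regions were near that level. Of the 71 common regions, 44 (62.0%) were overlapped by H3K27me3 of each MCF-10A replicate and 35 (49.3%) by that of each MDA-MB-231 replicate. H3K4me3 of both own replicates overlapped 21 MCF-10A regions (9.81%) and 1 MDA-MB-231 region (0.625%). Counted per replicate, H3K27me3 overlapped 30.4% and 29.4% of the MCF-10A regions and 58.1% and 83.1% of the MDA-MB-231 regions. The shares for all multi-peak domains of a list were 30.04% to 33.33% in MCF-10A, and in MDA-MB-231 44.3% to 44.9% with replicate 1 of H3K27me3 and 68.5% to 70.6% with replicate 2. The MCF-10A regions were thus near the level of all their domains. Region lengths moved with these shares, and their part in them was not tested. The H3K27me3 lists of MDA-MB-231 differed in length, with 8408 and 30238 autosomal peaks.

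Over all domains of a list, overlap with H3K27me3 of the same line was more frequent for larger domains. In MCF-10A it was 9.51% to 10.04% for single-peak domains and 64.3% to 68.4% for domains of 20 kb or more. In MDA-MB-231 these were 10.7% to 12.2% and 68.5% to 71.6% with the shorter H3K27me3 list, and 30.2% to 31.3% and 88.1% to 90.5% with the longer. A longer interval meets a peak more often by its length alone, and the share of H3K9me2 peak bases under H3K27me3 differed less between domain sizes. In MCF-10A replicate 1, with H3K27me3 of the same replicate, it was 4.62% in single-peak, 9.45% in multi-peak and 16.9% in large domains. For MCF-10A replicate 2 the same values were 4.64%, 9.99% and 24.8%, a steeper rise. In MDA-MB-231 replicate 1 it was 4.70%, 7.17% and 7.72% with the shorter list and 13.8%, 20.4% and 22.97% with the longer. MDA-MB-231 replicate 2 had 4.47%, 9.34% and 11.8% with the shorter list and 14.1%, 24.2% and 29.0% with the longer. H3K4me3 overlapped 5.60% to 6.67% of multi-peak domains in MCF-10A and 1.74% to 1.88% in MDA-MB-231. Stitched in the same way, 75.4%, 75.1%, 56.3% and 83.8% of H3K27me3 peaks and 36.8%, 38.7%, 39.2% and 37.2% of H3K4me3 peaks lay in multi-peak domains, in the order MCF-10A then MDA-MB-231. The H3K4me3 shares did not separate the lines.

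Of the 8 longest intervals over which multi-peak domains of both MCF-10A replicates overlapped, 2 lay on chromosome 16 and had no MDA-MB-231 peak. The interval from 81298412 to 81334749 (36.3 kb) was covered to 37.6% and 43.7% in MCF-10A, and that from 50952383 to 50988185 (35.8 kb) to 39.5% and 27.3%. On chromosome 8 from 6837356 to 6879088 (41.7 kb) coverage was 43.0% and 40.8% in MCF-10A and 8.62% and 3.28% in MDA-MB-231. H3K27me3 filled that interval in MCF-10A as well, at 87.1% and 86.2%, against 0% and 2.43% in MDA-MB-231. Both marks were thus high in the same line there.

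Of the other MCF-10A intervals, 1 on chromosome 8 (144153501 to 144189029) and 1 on chromosome 7 (158779352 to 158818820) were covered less in MDA-MB-231, at 17.4% and 9.62% and at 6.09% and 5.57%. They were covered to 36.3% and 25.0% and to 36.5% and 27.3% in MCF-10A. The interval on chromosome 2 from 87622673 to 87658631 was covered in all lists, at 78.6% and 77.2% in MCF-10A and 61.2% and 32.4% in MDA-MB-231.

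Of the 8 such intervals of MDA-MB-231, 3 lay on chromosome 20. The longest, from 57913048 to 57970319 (57.3 kb), was covered to 69.5% and 46.6% in MDA-MB-231 and 9.88% and 5.76% in MCF-10A. From 57319632 to 57373113 (53.5 kb) coverage was 44.8% and 36.9% against 2.57% and 5.38%, with H3K27me3 at 30.05% and 56.24% in MDA-MB-231 and 16.3% and 19.9% in MCF-10A. From 58297147 to 58335591 it was 50.6% and 36.4% against 0% and 0%. All 3 lie between 57319632 and 58335591 on chromosome 20.

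The interval on chromosome 6 from 40617553 to 40661923 (44.4 kb) was covered to 72.6% and 39.1% in MDA-MB-231 and to 3.72% and 5.07% in MCF-10A. Its H3K27me3 coverage was 9.60% and 29.6% in MDA-MB-231 and 1.35% and 1.26% in MCF-10A. On chromosome 14 from 106199678 to 106243696 (44.0 kb) coverage was 47.1% and 39.7% in MDA-MB-231 and no MCF-10A peak was present. On chromosome 7 from 150520771 to 150562613 it was 51.4% and 44.5% against 7.67% and 4.08%. The interval on chromosome 7 from 158299380 to 158348588 was covered in both lines, at 31.5% and 29.6% in MDA-MB-231 and 23.4% and 22.2% in MCF-10A.

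The lists had 72 intervals where multi-peak domains of all 4 overlapped. The longest, on chromosome 2 from 91778100 to 91809964 (31.9 kb), near the centromere, was covered to 76.4%, 77.1%, 72.6% and 67.3% and led or was among the longest in each line. The next, on chromosome 1 from 161411726 to 161439545 (27.8 kb), was covered to 89.3%, 81.6%, 78.0% and 80.8% and carried H3K4me3 over 44.1%, 46.6%, 25.8% and 23.9% of its length. It was the only one of the 5 longest common intervals with H3K4me3 in any list. The others lay on chromosome 9 (70652872 to 70672368), chromosome 8 (142564292 to 142583035) and chromosome 7 (158309061 to 158327567), and spanned 19.5, 18.7 and 18.5 kb. Their coverage was 54.9%, 51.1%, 54.0% and 52.1% on chromosome 9, 34.9%, 33.3%, 39.6% and 40.6% on chromosome 8, and 31.6%, 32.1%, 34.6% and 30.8% on chromosome 7. In these 3 the lines differed little, and on chromosome 8 both MDA-MB-231 lists lay above both MCF-10A lists. Genes in these intervals are not named, because no annotation of hg19 was used here.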

How the data were processed

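H3K9me2 ChIP-seq peak lists were available for each of the 2 biological replicates of both lines. Every deposited list has columns for chromosome, start, end, peak name and score. What the authors' score measures was not stated in these sources; all scores were 50 or more, and they served only to rank or filter peaks in the alternatives. The tools named per the submitters' processing notes are bedtools, Bowtie2, CASAVA 1.6 and MACS 1.4, with hg19 as the build. Their roles and settings, and any use of the inputs as controls, are not given in the sources used here. Per the labels' protocols, replicates were normalised and combined by the authors for their own analyses; the lists here are separate. Without read counts the depth behind a peak is unknown, and 2 lists per line set the precision.

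Peaks of chromosomes 1 to 22 less than 10 kb apart were stitched within each list (Python 3.11.15, NumPy 2.4.6, pandas 2.3.3). No list held overlapping peaks. Autosome lengths were taken from the outermost peaks of the 12 lists. Quantities per list were compared by two-sided exact permutation tests over lists. Covered bases per autosome (percent of the list, log2) and per 5 Mb bin (log2 of bp per Mb plus 50, bins covered in at least 2 lists) were tested with limma 3.58.1 in R 4.3.3, with empirical Bayes, a trend for bins, and Benjamini-Hochberg adjustment at 0.05. This scale understates the ratio of thinly covered bins, and where a line is at 0 only its coverage is given. The percentages printed beside counts of calls are shares of all features tested. The stitching, the classes, the permutation test and the limma fit of bins were tested on simulated data. Figures were drawn with matplotlib 3.10.9.

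Named intervals were the 8 longest shared by both replicates of a line and the 5 longest shared by all lists, of which the text gives most. Named bins had the 5 smallest p per direction among bins covered in all lists and the 2 smallest among all bins; each autosome that passed was named. The longest domains, chains and empty stretches were picked by length after their values were seen. The comparison, its lists and its tests were chosen with earlier results of these data known. Alternatives were stitching at 5, 20 and 50 kb, scores of at least 100, equal list lengths, other bin sizes, pseudocounts, scalings and thresholds, chromosome X included, a replicate block, and each list left out in turn; leaving out chromosomes 6, 8, 11, 16 and 20 and the densely filled bins were added after seeing the data. Positions count from 1. No genome or annotation of hg19 was used, so no gene or sequence is given.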

Additional observations from a re-analysis of the deposited data

Results flagged for a closer look

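Peaks on contigs that are not placed on a chromosome took no part in the comparison. They numbered 32 and 36 in the MCF-10A lists and 43 and 32 in the MDA-MB-231 lists. The lines overlapped in this number.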

How the results depend on the processing

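The 7 results per list kept their direction in 73 of 75 recomputed values. The exceptions were domain number, with a log2 ratio of 0.77 when only domains of 3 or more peaks were counted, and the share near autosome ends, with -0.20 percentage points at scores of at least 100. The log2 ratio of domain number was -0.15 for domains of 2 or more peaks (exact permutation p = 0.667) and -0.29 at equal list lengths. The share of bases in large domains differed by 4.0, 21.9 and 20.4 points with stitching at 5, 20 and 50 kb, by 4.71 points at scores of at least 100 and by 2.34 points for domains of 50 kb or more. Near the ends the difference was 1.20 points within 2 Mb and 3.68 points at equal list lengths. Counts of regions depended most on the rule. Regions of MCF-10A alone numbered 140, 343 and 476 with stitching at 5, 20 and 50 kb, 24 at scores of at least 100, 59 at equal list lengths, 36 with domains of 3 or more peaks and 324 where single peaks of the other line were allowed. Regions of MDA-MB-231 alone numbered 141, 167 and 107 with stitching at 5, 20 and 50 kb, 187 at equal list lengths, 18 at scores of at least 100, 53 with domains of 3 or more peaks and 299 with single peaks allowed. Common regions numbered 42, 135 and 221 with stitching at 5, 20 and 50 kb, 8 at scores of at least 100, 40 at equal list lengths and 14 with domains of 3 or more peaks. Leaving out each list in turn gave 248 to 576 regions of MCF-10A alone, 184 to 452 of MDA-MB-231 alone and 89 to 118 in common, since fewer lists then had to match.

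Bins higher in MDA-MB-231 numbered 41 with unscaled coverage and 39 at scores of at least 100, and with 1 Mb bins the calls were 293 and 984. With each list left out in turn, 76 to 137 bins were higher in MDA-MB-231 and 77 to 343 in MCF-10A; the lowest values came without an MCF-10A list, where 477 bins could be tested and the lone list is assumed to vary like the others. Of 152 values for the 12 named bins, 151 kept their direction. The exception was the last bin of chromosome 20, at -0.28 when scaled within the chromosome. The named bins were picked for the smallest p in the same lists, which favours such persistence. Those of chromosome 16 from 50000001 and chromosome 8 from 35000001 were at 0 in both MDA-MB-231 lists. Leaving out an MDA-MB-231 list could not change their ratio, and they were not tested without an MCF-10A list. Of 152 values for the 19 called autosomes, 142 kept the call and 10 kept the direction only; at scores of at least 100, chromosomes 3, 4, 5, 9, 10 and 15 did not pass. Autosomes higher in MCF-10A numbered 8 and in MDA-MB-231 5 at that score. Deviations of same-numbered lists from their line means had a Pearson r of 0.00316 over 559 bins. Bins were scaled to the list total, which removes a shift shared by a whole list, so this r cannot show that the samples are unpaired. Replicate 1 had more autosomal peaks than replicate 2 in both lines (10418 against 8701 and 6086 against 4980). With the replicate number as a block, 118 and 303 bins and 7 and 12 autosomes passed for MDA-MB-231 and MCF-10A. The lists give no depth, so a site without a peak was not detected at an unknown depth, which does not show that it lacked the mark.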
